A study of Mus musculus with 6 samples.

Results

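The vacuolar proton pump and its partners in acid secretion were followed as 30 genes in mouse tibia. They comprise 25 genes of the pump and 5 genes whose products work beside it in the bone-resorbing osteoclast. The genes were chosen by name, as subunits of the vacuolar H+-ATPase and as the chloride, carbonic anhydrase and trafficking genes of osteoclast acid secretion, and all 30 were found among the 56748 genes of the files. Of these, 26 had enough reads to be tested, among 18514 genes tested in all.

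An osteoclast dissolves bone mineral by pumping protons across a folded membrane, the ruffled border, into a sealed space on the bone surface. The pump has a cytosolic V1 domain that splits ATP and a V0 domain in the membrane that carries the protons. Carbonic anhydrase II supplies the protons, an exchanger of chloride and bicarbonate keeps the cytosol from turning alkaline, and a chloride-proton exchanger balances the charge. The same pump acidifies lysosomes and endosomes in all cells, so most of its subunits are general, while a few positions have isoforms that are enriched in osteoclasts, kidney, inner ear, brain or testis. In people, loss of the osteoclast isoform of subunit a, of the chloride exchanger or of its partner protein causes osteopetrosis, in which bone is not resorbed.

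The tibiae came from female mice killed at 12 weeks of age, 3 samples of genotype Col1a1+/- and 3 of wild type (WT). Col1a1 codes for a chain of type I collagen, the main protein of bone matrix, and per the series title the mice model a mild form of brittle bone disease, osteogenesis imperfecta type I. Marrow was flushed out before RNA was taken from the whole bone and poly-A selected. The labels do not say how the allele was made, and they give the sample numbers without saying that each is a separate animal, so p-values measure the spread between these samples. Each library is called here by its genotype and replicate number.

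Libraries held 26.8 to 32.4 M counted reads. Levels are counts per 1e6 reads (CPM) after TMM scaling, which sets a library's size from the bulk of its genes, and levels of different genes were compared as CPM per kb of exon. Col1a1, the targeted gene, stood at 61150, 52880 and 59600 CPM in Col1a1+/- against 36810, 61350 and 54800 CPM in WT (log2 fold change 0.18 ± 0.31, SE; edgeR adjusted p = 0.78), and its ratio to Col1a2 was 0.775 to 0.836 in Col1a1+/- and 1.25 to 1.32 in WT. The lists of osteoblast, osteocyte and osteoclast markers were all detected, with 9 of 9, 7 of 8 and 14 of 14 genes tested. The 24 skeletal muscle genes took 1.96% to 3.96% of reads in Col1a1+/- and 6.24% to 7.82% in WT, and none was at 0. Neutrophil genes took 0.633% in WT replicate 1 and 0.106% to 0.175% in the other libraries.

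Fold changes are Col1a1+/- over WT, from edgeR's quasi-likelihood test with Benjamini-Hochberg adjustment over all tested genes and a threshold of 0.05. Of the 26 tested pump and acid secretion genes, 0 rose, where 1.43% of all tested genes did, and 1 fell, where 2.91% did (4.34% in either direction). The gene that fell was Atp6v0e2, a rarer isoform of subunit e. DESeq2 called the same single gene, where it called 4.26% of all genes higher and 7.93% lower, and limma-voom called 0, where it called 1.4% and 2.94%. At an unadjusted p under 0.05 there were 2 higher genes (Atp6v0d2 and Atp6v0e) and 1 lower, where 9.59% of all genes were higher and 13.2% lower.

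Most members had small positive fold changes under TMM scaling, and negative ones when libraries were scaled on osteocyte genes or osteoclast markers. The log2 fold change was above 0 for 21 of 26, where 49.1% of all tested genes were, and for 16 with the muscle score as a covariate. Scaling libraries on osteocyte genes or on osteoclast markers put 0 of 26 above 0, but it moved the median of all tested genes as well, to -0.79 and -0.37. Relative to that median, the osteoclast isoforms lay 0.28 and 0.26 higher under these scalings, and 0.28 higher under TMM. A scaling moves all genes nearly alike, so this likeness follows from the method. With the muscle score as a covariate the osteoclast isoforms stood at -0.01 relative to the median of all tested genes. Under TMM, the median over the 26 was 0.14, beside -0.01 over all tested genes. By role, the median was 0.27 for the 3 genes grouped as osteoclast isoforms (Tcirg1, Atp6v0d2 and Atp6v1c1) and 0.13 for the 15 general subunits. It was 0.11 for the 3 tested restricted isoforms and 0.05 for the 5 acid secretion partners. Without Col1a1+/- replicate 3 the osteoclast isoforms had 0.16, without WT replicate 1 the general subunits had 0.08 and without Col1a1+/- replicate 1 they had 0.20. The partners had 0.19 without WT replicate 2. In all, 3 members were higher in every Col1a1+/- library than in every WT library (Atp6v0e, Atp6v1b2 and Atp6ap1), where 14.0% of all tested genes were, and Atp6v0e2 alone was lower in every one, where 14.5% were.

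**Figure D1:**
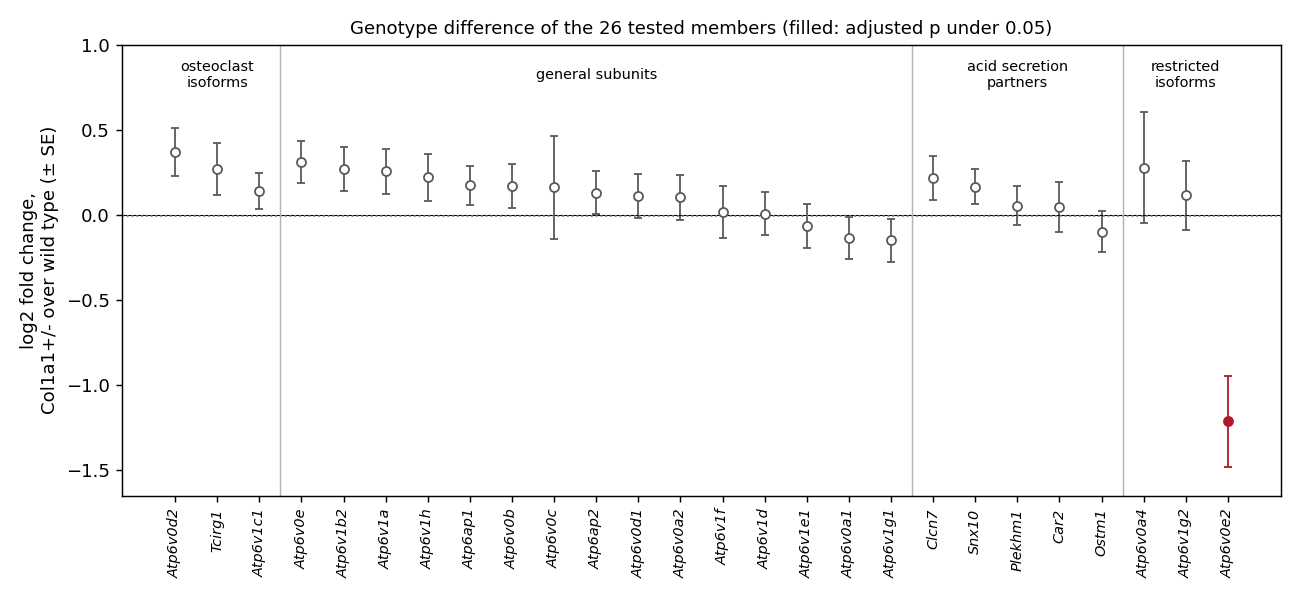
Log2 fold change (Col1a1+/- over WT, y axis) of the 26 tested members with its standard error, ordered by role. Atp6v0e2 is the single member past the adjusted threshold, and 21 of 26 points lie above 0 here, but 0 of 26 when scaling on osteocyte genes or osteoclast markers moves the median of all genes to -0.79 or -0.37.

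In bulk tissue, fewer cells of a type and less RNA per cell cannot be told apart, and the share of osteoclast marker reads differed between genotypes. The 14 osteoclast markers, with Acp5 and Ctsk among them, took 0.785% to 0.992% of reads in Col1a1+/- and 0.536% to 0.649% in WT. Most of that share was Ctsk, Mmp9 and Acp5. In Col1a1+/- replicate 1 they had 2470, 2493 and 1857 of 7606 CPM, and in WT replicate 1 they had 1896, 1649 and 1234 of 5515 CPM. All 14 markers had a log2 fold change above 0, where 49.1% of all tested genes did, with a median of 0.37. At an edgeR unadjusted p under 0.05, 8 were higher, where 9.59% of all tested genes were, and 0 passed the adjusted threshold. Markers of the bone-forming lineage were further apart. The 9 osteoblast genes had a median of 0.82. Of these, 5 were called higher, where 1.43% of all tested genes were, and 9 were higher without overlap, where 14.0% were. The osteoblast genes took 8.42% ± 0.498 of reads in Col1a1+/- and 4.34% ± 0.793 in WT (SD, n = 3 each). Most of that share was Col1a2, with 68190 to 73120 of 78410 to 83350 CPM in Col1a1+/- and 27900 to 49100 of 32270 to 55470 CPM in WT. The 7 tested osteocyte genes had a median of 0.52, with 0 past the threshold. Acp5, the acid phosphatase that marks osteoclasts, had 0.35 ± 0.18 (SE; adjusted p = 0.277), and Ctsk, the protease that cuts bone collagen, had 0.49 ± 0.20 (adjusted p = 0.179). Col1a1+/- replicate 3 held the highest level of 17 of 26 members and 13 of 14 osteoclast markers, where it held the highest level of 21.5% of all tested genes. WT replicate 1, the library with the high neutrophil share, held the lowest level of 13 members, where it held the lowest of 23.8% of all genes.

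Tcirg1 encodes a3, the osteoclast isoform of subunit a, the V0 subunit through which protons pass. It lies on chromosome 19 at 3946050 to 3957133 of GRCm39, on the minus strand. Tcirg1 stood at 355, 313 and 433 CPM in Col1a1+/- replicates 1 to 3 and at 301, 337 and 276 CPM in WT. The highest library was Col1a1+/- and the lowest WT, but the groups overlapped. The log2 fold change of 0.27 ± 0.15 (SE) did not pass the threshold (adjusted p = 0.334).

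Tcirg1 was the main a isoform of the bone by level per kb. It gave 78.3%, 77.1% and 81.4% of the summed level of the 4 a isoforms in Col1a1+/- and 77.7%, 77.6% and 71.0% in WT. Atp6v0a1 and Atp6v0a2, the isoforms of endosomes, Golgi and nerve terminals in other cells, gave 9.32% to 17.0% and 8.35% to 11.4%, and Atp6v0a4, the kidney and inner ear isoform, gave 0.289% to 0.597%. Atp6v0a1 had a log2 fold change of -0.14 ± 0.12 (adjusted p = 0.568) and Atp6v0a2 one of 0.10 ± 0.13 (adjusted p = 0.695). The ratio of Tcirg1 to Atp6v0a1 per kb was 6.21, 5.93 and 8.73 in Col1a1+/- and 6.01, 5.68 and 4.17 in WT. This was a difference of 0.39 on the log2 scale, within overlapping groups (exact two-sided permutation p = 0.2, adjusted over 4 isoform ratios 0.4, smallest possible p 0.1).

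Atp6v0d2, on the minus strand of chromosome 4 at 19876841 to 19922605, encodes the osteoclast isoform of subunit d, which joins V0 to the central stalk and is also known for a role in the fusion of osteoclast precursors. It stood at 146, 168 and 199 CPM in Col1a1+/- and at 127, 148 and 122 CPM in WT. Only Col1a1+/- replicate 1 lay inside the WT range. Mean levels of 171 ± 26.8 CPM in Col1a1+/- and 132 ± 14.0 CPM in WT (SD, n = 3 each) gave a log2 fold change of 0.37 ± 0.14 (SE; edgeR adjusted p = 0.158). On scaling by osteoclast markers that value was -0.0007914, and on osteocyte genes -0.41.

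Its ubiquitous paralog Atp6v0d1 stood at 60.4, 73.4 and 84.3 CPM in Col1a1+/- and at 66.6, 64.0 and 71.5 CPM in WT, so the groups overlapped fully. Per kb, Atp6v0d2 made up 61.4%, 60.2% and 60.9% of subunit d in Col1a1+/- and 55.8%, 60.4% and 52.9% in WT. The share was nearly the same in the 3 Col1a1+/- libraries and varied more in WT, where replicate 2 lay within the Col1a1+/- range. The ratio of Atp6v0d2 to Atp6v0d1 was 1.55 ± 0.0391 in Col1a1+/- and 1.30 ± 0.206 in WT (SD, n = 3 each; exact permutation p = 0.2, adjusted 0.4).

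Atp6v1c1 encodes C1, the V1 subunit that osteoclasts use to hold the stalk in place. It stood at 81.0, 85.8 and 97.6 CPM in Col1a1+/- and at 76.7, 84.5 and 78.9 CPM in WT (log2 fold change 0.14 ± 0.11, SE; adjusted p = 0.486). Its paralog Atp6v1c2, a kidney and lung isoform, was not tested, with 10, 5 and 11 reads in Col1a1+/- and 17, 2 and 3 reads in WT. C1 made up 98.3% to 99.8% of subunit C per kb, so at this position it had no general isoform beside it. Its place among the osteoclast isoforms is a choice of grouping. The ratio of Atp6v1c1 to Atp6v1a, the catalytic subunit of the same domain, was 0.496 ± 0.0153 in Col1a1+/- and 0.541 ± 0.0601 in WT (SD, n = 3 each; exact permutation p = 0.4).

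**Figure D2:**
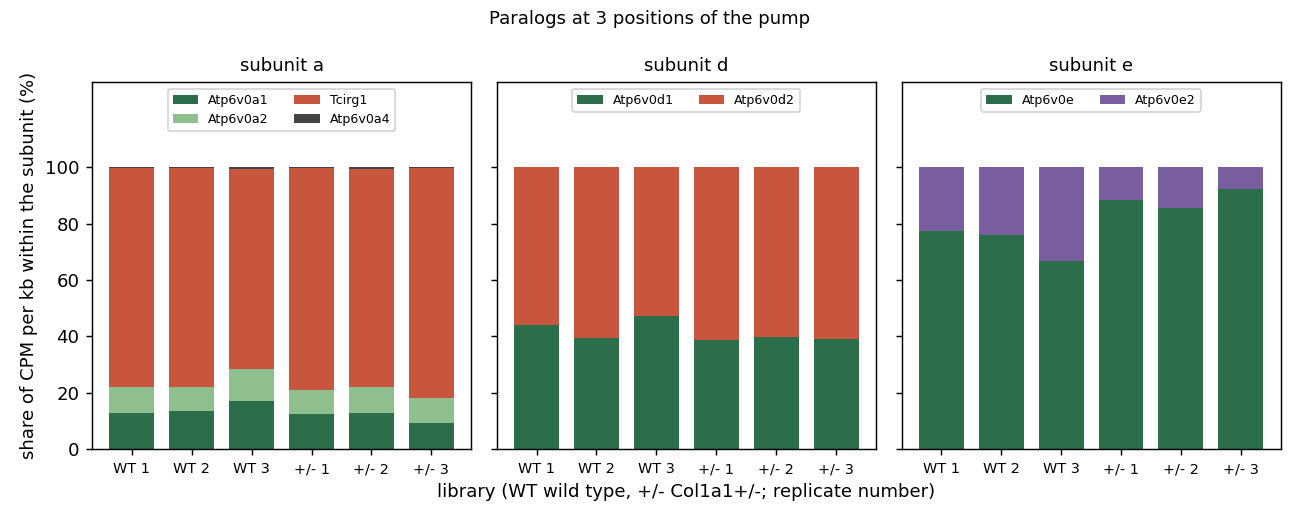
Share of each isoform in the summed level of its subunit (CPM per kb of exon, %), for subunits a, d and e in each of the 6 libraries. Tcirg1 holds 71.0% to 81.4% of subunit a, Atp6v0d2 holds 52.9% to 61.4% of subunit d, and the Atp6v0e2 share of subunit e is 7.74% to 14.7% in Col1a1+/- and 22.8% to 33.2% in WT.

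The 15 general subunits spanned a wide range of levels. Atp6v1g1, of the V1 stator stalk, had the highest mean over the 6 libraries, 181 CPM per kb. It was followed by Atp6v1f (93.7), Atp6v0c (92.0), Atp6v0b (88.8) and Atp6ap1 (84.4 CPM per kb), whose ranges overlapped their neighbours'. Atp6v0c and Atp6v0b encode the proton-carrying ring, which holds several copies of the c subunit in each pump. Tcirg1 came next in the order of all 30 members with 73.0 CPM per kb, then Car2 with 64.5 (ranks 6 and 7), and Atp6v0d2 stood at rank 8 with 55.8. Among the general subunits Atp6v1h, which regulates the coupling of the domains, was lowest at 5.41 CPM per kb. Such an order sets transcripts side by side and says nothing of how many copies a pump holds. It also depends on the annotated exon length, 1135 bases for Atp6v1g1 and 4603 for Tcirg1. In CPM without length, Tcirg1 stood above Atp6v1g1, with means of 367 against 195 in Col1a1+/- and 305 against 217 in WT.

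**Figure D3:**
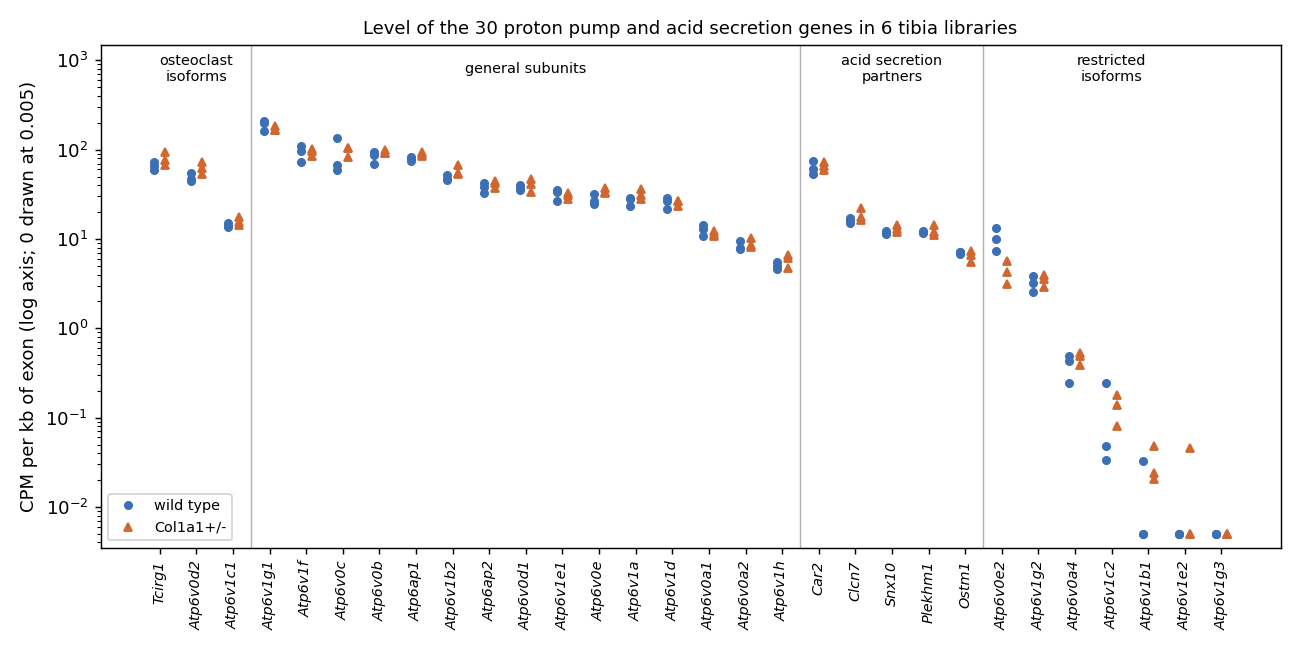
Level of the 30 members (CPM per kb of exon, log axis) in 3 WT (circles) and 3 Col1a1+/- (triangles) libraries, by role, with values of 0 drawn at 0.005. Most osteoclast isoforms, general subunits and partners lie between 5 and 200 CPM per kb, and 4 restricted isoforms lie below 0.3.

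In the V0 domain 10 of 10 genes were tested and had a median of 0.17 (log2 fold change), and in V1 9 of 13 were tested and had 0.11. Atp6v0e encodes the small general e subunit of V0. It stood at 121, 123 and 139 CPM in Col1a1+/- and at 91.9, 118 and 98.2 CPM in WT. All Col1a1+/- libraries were above all WT ones, by a narrow margin over WT replicate 2. The log2 fold change was 0.31 ± 0.12 (SE; edgeR adjusted p = 0.171), and it was -0.43 on scaling by osteocyte genes and -0.05 on osteoclast markers. Atp6v0c had the widest spread of the general subunits, 353, 356 and 277 CPM in Col1a1+/- against 230, 452 and 201 CPM in WT (0.16 ± 0.30, SE; adjusted p = 0.807). Its counts are uncertain because reads shared with its pseudogenes were left out. Atp6v0b shares 11.8% of its exon bases with a gene on the opposite strand and cannot be told apart from it there.

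In V1, the catalytic subunit gene Atp6v1a stood at 171, 188 and 218 CPM in Col1a1+/- and at 173, 168 and 142 CPM in WT (0.26 ± 0.13, SE; adjusted p = 0.288). Its partner Atp6v1b2, which forms the ATP-binding hexamer with it, stood at 282, 292 and 354 CPM against 251, 275 and 245 CPM. These 2 groups did not overlap, but the log2 fold change of 0.27 ± 0.13 did not pass (adjusted p = 0.258). Atp6v1d, Atp6v1f, Atp6v1e1 and Atp6v1g1, of the stalks, had log2 fold changes of 0.01, 0.02, -0.07 and -0.15, and Atp6v1h had 0.22. The accessory subunits, Atp6ap1 and the prorenin receptor Atp6ap2, had 0.17 and 0.13. None of these passed the threshold.

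Atp6v0e2 fell in Col1a1+/-. It encodes a second isoform of subunit e, known best from brain, and lies on the plus strand of chromosome 6 at 48514549 to 48518735. It stood at 10.3, 13.6 and 7.45 CPM in Col1a1+/- and at 17.4, 24.0 and 31.2 CPM in WT. The groups did not overlap, though both were wide. Atp6v0e2 averaged 10.4 ± 3.06 CPM in Col1a1+/- and 24.2 ± 6.93 CPM in WT (SD, n = 3 each), so it was 2.32 times higher in WT (log2 fold change -1.21 ± 0.27, SE; edgeR adjusted p = 0.0481). Per kb, Atp6v0e2 made up 11.4% ± 3.47 of subunit e in Col1a1+/- and 26.7% ± 5.65 in WT (SD, n = 3 each), with no overlap.

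The order of the 6 libraries by Atp6v0e2 was the order by muscle share. From lowest to highest it ran Col1a1+/- replicates 3, 1 and 2, then WT replicates 1, 2 and 3, both for the gene and for the 24 muscle genes (1.96%, 2.16%, 3.96%, 6.24%, 6.27% and 7.82% of reads). With the muscle score as a covariate the log2 fold change was 0.09 (adjusted p = 0.977), and the fit called 0 genes of any kind, with 550 higher and 482 lower at an unadjusted p under 0.05. Muscle share and genotype separate the same libraries and cannot be told apart in these 6. The adjusted p was 0.0003216 with DESeq2 and 0.052 with limma-voom. It was 0.168 without Col1a1+/- replicate 1, 0.134 without Col1a1+/- replicate 3, 0.117 without WT replicate 2 and 0.132 without WT replicate 3, so that without any of these 4 libraries 0 members passed.

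**Figure D4:**
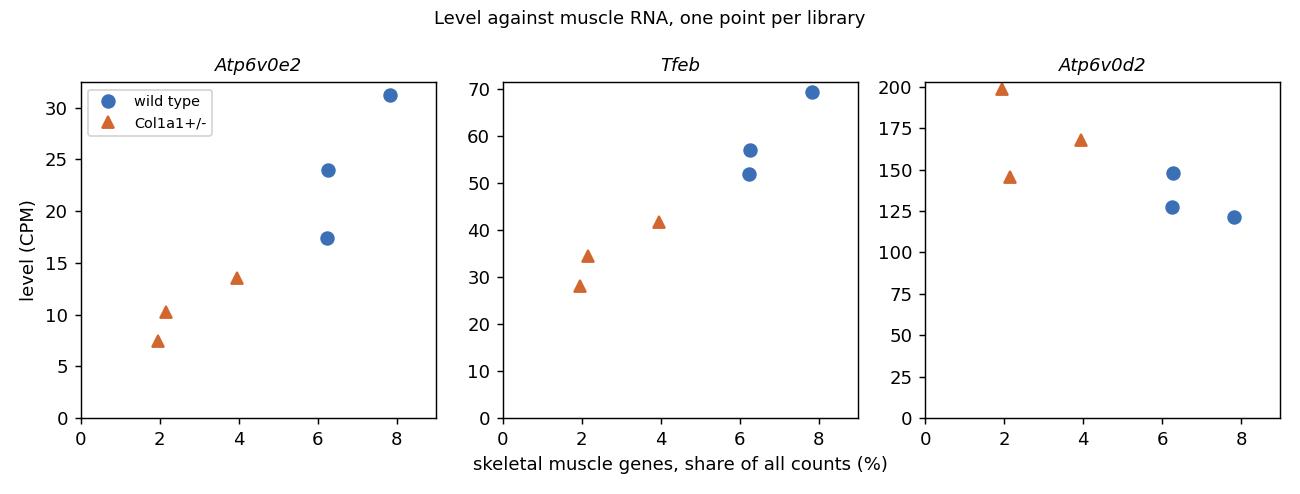
Level of Atp6v0e2, Tfeb and, for comparison, Atp6v0d2 (CPM, y axis) against the share of reads in 24 skeletal muscle genes (%, x axis) in each library. Atp6v0e2 and Tfeb are lowest in Col1a1+/- replicate 3, at 7.45 and 28.0 CPM, and highest in WT replicate 3, at 31.2 and 69.4 CPM, and no library changes place between these genes and the muscle share. Atp6v0d2 does not follow that order within WT, where it is highest in replicate 2.

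The other restricted isoforms were at low levels. Atp6v0a4 stood at 1.21 to 2.62 CPM and Atp6v1g2, the brain isoform of subunit G, at 6.44 to 9.99 CPM, with log2 fold changes of 0.28 ± 0.32 and 0.11 ± 0.20 (SE; adjusted p = 0.667 and 0.794). Together with Atp6v0e2 they had a median of 0.11, which was -0.02 without WT replicate 2 and -0.05 without WT replicate 3. Atp6v1b1, the isoform of acid-secreting kidney and inner ear cells, had 3, 3 and 6 reads in Col1a1+/- and 0, 4 and 0 in WT. Atp6v1e2, of the testis, had 2 reads in Col1a1+/- replicate 1 and 0 elsewhere. Atp6v1g3, of the kidney, had 0 reads in all 6 libraries. If each read counts as independent, this allows up to 0.0899 to 0.109 CPM (3 reads per library, counting error only). Mates of a fragment were counted singly and are not independent, so the true bound is higher. B2, E1 and G1 made up at least 99.9%, 99.8% and 97.6% of their subunits per kb in every library.

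None of the 5 partners of the pump passed the threshold. Clcn7, the chloride-proton exchanger of lysosomes and the ruffled border, stood at 93.3, 87.0 and 118 CPM in Col1a1+/- and at 85.6, 91.5 and 79.5 CPM in WT. The 2 lower Col1a1+/- libraries lay within or just above the WT range, and the log2 fold change was 0.22 ± 0.13 (SE; adjusted p = 0.37). Ostm1, the protein that Clcn7 needs for its stability, stood at 40.3, 47.8 and 53.2 CPM against 50.9, 51.3 and 49.1 CPM. Its log2 fold change was -0.10 ± 0.12 (adjusted p = 0.678), with a wide range in Col1a1+/- around 3 nearly equal WT values, and 0.02 without Col1a1+/- replicate 1.

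Car2, carbonic anhydrase II, stood at 159, 175 and 142 CPM in Col1a1+/- and at 130, 182 and 148 CPM in WT (0.05 ± 0.15, SE; adjusted p = 0.891). The WT values alone span those of Col1a1+/-, and the sign turned, to -0.03, without Col1a1+/- replicate 2 or without WT replicate 1. Red blood cell precursors also express Car2, and the erythroid list (14 of 15 genes found) took 0.317% ± 0.0169 of reads in Col1a1+/- and 0.291% ± 0.0711 in WT (SD, n = 3 each). The part of these cells in the Car2 level was not tested. Snx10, a sorting nexin needed to form the ruffled border, stood at 113, 122 and 135 CPM against 107, 114 and 109 CPM (0.17 ± 0.10, SE; adjusted p = 0.39). Plekhm1, an adaptor for the fusion of lysosomes, stood at 66.3, 71.5 and 85.3 CPM against 71.1, 73.8 and 70.3 CPM (0.05 ± 0.11; adjusted p = 0.836), with -0.03 without Col1a1+/- replicate 3.

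Set against the 14 osteoclast markers instead of all genes, these members took other positions. The measure is the log2 level of the gene minus the mean log2 level of the markers in the same library, and differences are Col1a1+/- minus WT. For Atp6v0d2 it was 0.56, 0.84 and 0.67 in Col1a1+/- and 0.71, 0.75 and 0.63 in WT, a difference of -0.00485 (exact permutation p = 1.0). The groups overlapped, and the sign of this small difference turned in 4 of the 6 sets that left out a library. For Tcirg1 the difference was -0.11 (p = 0.2 by the same exact test).

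Ostm1 lay 1.29, 0.97 and 1.23 log2 units below the markers in Col1a1+/- and 0.61, 0.78 and 0.68 below in WT, a difference of -0.47. Plekhm1 had a difference of -0.32, Atp6v1c1 of -0.23 and Clcn7 of -0.16. Each of these 4 genes was lower against the markers in all 3 Col1a1+/- libraries than in any WT library. This gives the smallest exact permutation p this design allows, 0.1 (0.2 adjusted over 8 genes). Scaling libraries on these markers moved the median log2 fold change of all tested genes to -0.37, and of the 4 genes only Ostm1 lay below that. A lower position against the markers is thus not particular to these members, and the share of all genes that separate in this way was not counted. Car2 and Snx10 had differences of -0.31 and -0.20 with overlapping groups (exact permutation p = 0.2 each, adjusted 0.229). In the same libraries macrophage genes, of cells that share the lysosomal genes, took 0.0723% ± 0.00622 of reads in Col1a1+/- and 0.0558% ± 0.00695 in WT (SD, n = 3 each), and their part in these values was not tested.

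**Figure D5:**
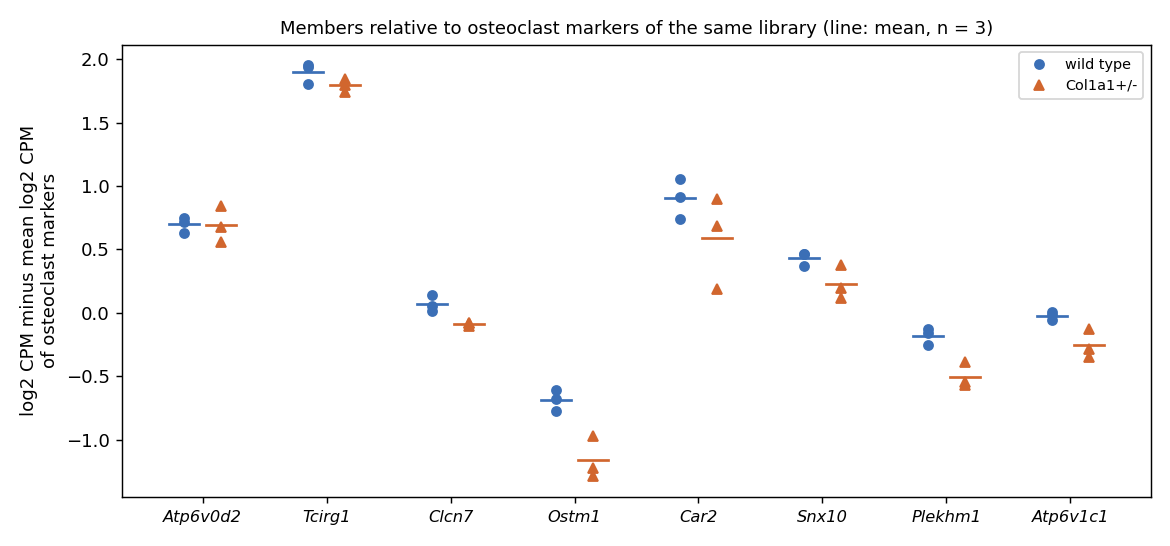
Log2 level of 8 members minus the mean log2 level of 14 osteoclast markers in each library (y axis, log2 units), 3 WT and 3 Col1a1+/- libraries per gene. The groups do not overlap for Clcn7, Ostm1, Plekhm1 and Atp6v1c1, with Col1a1+/- below, and overlap for Atp6v0d2, Tcirg1, Car2 and Snx10. The median log2 fold change of all tested genes was itself -0.37 on scaling by these markers.

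The members also differed in their spread over the libraries, alone and against the osteoclast markers. Over the 6 libraries, the SD of Tcirg1 was 0.227 log2 units for its own level and 0.0842 for its level against the markers. For Atp6v0d2 the values were 0.262 and 0.0985, for Atp6v1b2 0.190 and 0.0776, and for Clcn7 0.195 and 0.0974. Atp6v1c1, though grouped with the osteoclast isoforms, had 0.124 and 0.147. A gene that varies less than the markers can have a larger spread against them even when it moves with them. These values therefore do not measure how closely a gene followed the markers. The spread was smaller against the markers for 9 of 26 members, and smaller against the 24 lysosomal genes for 20 of 26. The mean log2 level of the markers ran from 6.28 to 6.96 over the libraries, that of the lysosomal genes from 6.97 to 7.22. Both counts depend on this difference in range, so they do not tell which list the members followed more closely. The share of all tested genes with a smaller spread was not counted. These are descriptions, since the libraries share genotype and tissue makeup.

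Among the other genes that move ions or vesicles for acid secretion, 0 of 9 passed the threshold, and their log2 fold changes had a median of 0.12. Slc4a2, the chloride-bicarbonate exchanger of the osteoclast, stood at 118, 124 and 161 CPM in Col1a1+/- and at 101, 114 and 109 CPM in WT. The groups did not overlap, and the log2 fold change was 0.31 ± 0.14 (SE; edgeR adjusted p = 0.215). It shares 13.7% of its exon bases with Fastk on the opposite strand. Slc9b2, a sodium-proton exchanger that is strongly expressed in osteoclasts, stood at 115, 126 and 172 CPM against 102, 115 and 87.0 CPM (0.45 ± 0.17; adjusted p = 0.159). Clcn3, a related exchanger of endosomes, stood at 27.9, 29.5 and 27.6 CPM against 39.7, 34.7 and 38.5 CPM (-0.41 ± 0.10; adjusted p = 0.0576). Every Clcn3 value was lower in Col1a1+/- than in WT, the opposite side from Slc4a2 and Slc9b2.

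Of the genes that assemble or regulate the pump, 11 of 12 were tested and 0 passed, with a median of -0.06. Among those with a negative fold change the smallest p belonged to Oxr1, which takes the pump apart (-0.23, adjusted p = 0.282), and among those with a positive one to Tmem199, an assembly factor (0.07, adjusted p = 0.854). Of the 10 other carbonic anhydrase genes, 1 rose. This was Car12, a membrane-bound form with its active site outside the cell, on chromosome 9 at 66620968 to 66674127. It stood at 63.8, 63.8 and 114 CPM in Col1a1+/- and at 17.9, 31.4 and 33.8 CPM in WT. All 3 Col1a1+/- libraries were above all WT libraries, with 80.6 ± 29.0 against 27.7 ± 8.58 CPM on average (SD, n = 3 each), 2.91 times higher (log2 fold change 1.54 ± 0.32, SE; edgeR adjusted p = 0.0486). The adjusted p was 0.131 without Col1a1+/- replicate 1, 0.0984 without Col1a1+/- replicate 3, and 0.0608, 0.108 and 0.123 without WT replicates 1, 2 and 3, and 0.176 with no filter on low counts. Car12 still passed without Col1a1+/- replicate 2 (0.0402), with DESeq2 (5.827e-06) and with limma-voom (0.0462). In edgeR it also passed by library totals (0.0179), with a term for replicate number (0.0403) and on scaling by osteoclast markers (0.0138). With the muscle covariate the log2 fold change was 1.15 (adjusted p = 0.864), and on scaling by osteocyte genes it was 0.79 (adjusted p = 0.163). Car3, an abundant form of muscle and fat, stood at 1278, 1431 and 983 CPM against 1869, 2223 and 1912 CPM (-0.70; adjusted p = 0.0678).

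Of 24 lysosomal genes 0 passed the threshold, and the median was 0.16. At an edgeR unadjusted p under 0.05, 7 were higher and 1 lower, where 9.59% and 13.2% of all tested genes were. Further, 13 lay above every WT library in all Col1a1+/- libraries and 1 below, where 14.0% and 14.5% of all tested genes did. Among those with a negative fold change the smallest p belonged to Scarb2, a protein of the lysosomal membrane (-0.38, adjusted p = 0.0663). Of the 4 genes of the MiT/TFE factors, which drive lysosomal and pump genes, Tfeb fell. It stood at 34.5, 41.9 and 28.0 CPM in Col1a1+/- and at 52.0, 57.2 and 69.4 CPM in WT, with no overlap. On average it was 34.8 ± 6.92 CPM in Col1a1+/- and 59.5 ± 8.97 CPM in WT (SD, n = 3 each), 1.71 times higher in WT (-0.77 ± 0.17, SE; edgeR adjusted p = 0.0406). The libraries stood in the same order as for Atp6v0e2 and for muscle share, and the value was 0.03 with the muscle covariate. The adjusted p was 0.158 without Col1a1+/- replicate 1, 0.131 without Col1a1+/- replicate 3, 0.0932 without WT replicate 2 and 0.126 without WT replicate 3. Tfeb still passed with DESeq2 (0.001665) and limma-voom (0.03998). Mitf, the MiT/TFE factor known for osteoclast formation, stood at 16.6, 13.8 and 18.0 CPM against 15.7, 14.9 and 16.3 CPM (0.05; adjusted p = 0.885), and Tfe3 and Tfec had 0.09 and -0.14.

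Because MiT/TFE factors are known to bind the letters TCACGTG in promoters of lysosomal and pump genes, the members' promoters were searched for them. RefSeq windows of 300 bases, from 250 before to 50 after a gene start on GRCm38.p6, were at hand for 23 of the 30 members (31 windows). Atp6v0d2, Atp6v1c1, Atp6v0a2, Atp6v1b2, Atp6v1g1, Atp6v1h and Car2 had no entry. On either strand, TCACGTG stood in 5 of 31 member windows (16.1%) and in 3.77% of all 32851 windows. The longer TCACGTGA, which contains it, stood in 4 (12.9%) and in 0.974%. The lysosomal list held the shorter match in 7 of 19 windows and the longer in 3, so it is not particular to the pump genes. The stretches of 30 bases around a match in each of the 5 genes are shown 5′ to 3′ on the strand of the gene, since they are the windows that carry the match, with the matched letters in capitals.
Atp6v0d1: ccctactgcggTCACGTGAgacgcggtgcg
Atp6v0e: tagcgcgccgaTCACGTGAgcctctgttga
Atp6v0b: tgtgcgcgggggTCACGTGgggtcggcgca
Atp6v1a: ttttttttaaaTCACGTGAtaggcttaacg
Clcn7: ctccgtcgtcagTCACGTGggcaccgatga

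These stretches lie at chr8:105566050-105566079 (minus strand) for Atp6v0d1, chr17:26676387-26676416 (plus) for Atp6v0e, chr4:117887349-117887378 (minus) for Atp6v0b, chr16:44139373-44139402 (minus) for Atp6v1a and chr17:25133363-25133392 (plus) for Clcn7. Counted from the gene start as base 1, the matches begin at -4, 3, -37, -132 and -16. Atp6v0b and Clcn7 each hold a further match, at -19 and 7. The one at 7 in Clcn7, not printed here, is the longer TCACGTGA. The log2 fold changes of the 5 genes were 0.11, 0.31, 0.17, 0.26 and 0.22, and none passed the threshold. A match is a description of the letters, and binding was not measured here.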

How the data were processed

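The authors deposited raw counts of reads, not normalized, made with featureCounts 2.0.3 on the GRCm39 annotation of Ensembl release 107, per the file headers. Reads had passed through Trimmomatic 0.39, HISAT2 2.2.1 and SAMtools 1.20, per the submitters' processing notes, with settings not given in the sources used here. Per the file headers, mates were counted singly, without strand, and reads with several alignments or shared by overlapping genes were left out, which lowers genes with close copies or overlapping neighbours.

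Symbols were matched by gene ID for 52073 of 56748 genes. Genes were filtered with filterByExpr and tested with edgeR 4.0.16 (R 4.3.3) after TMM scaling, with genotype as the only term. Standard errors came from the F statistic, as the size of the log2 fold change over the root of F. A prior count of 2 was added for log2 levels. Ratios were tested by exact two-sided permutation. Alternatives were DESeq2 1.42.0, limma-voom (limma 3.58.1), other scalings and filters, a replicate block, a muscle covariate and leaving out each library. Members and lists were chosen with earlier results of these data known. Described in full were the osteoclast isoforms and their paralogs, the partners and members at p under 0.05, then the smallest p in each direction of each pathway list, with Slc4a2, Tfeb, Mitf, Acp5 and Ctsk as references. A gene that this rule names is not reported here. Atp6v1b2 and other subunits were given values after these were seen. Same-numbered libraries did not deviate together. Of 198 listed symbols 197 were found. The code was tested on simulated data.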

Additional observations from a re-analysis of the deposited data

How the results depend on the processing

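With 3 libraries a group, the members' standard errors ran from 0.10 to 0.32 on the log2 scale, near the size of most of their fold changes. Genes called higher and lower, 265 and 538 at first, were 588 higher by library totals, 788 and 1468 with DESeq2, 577 and 895 without a filter, 0 and 0 with the muscle covariate, 2 and 2209 on osteocyte scaling, 30 and 2077 on osteoclast scaling, and 0 to 594 and 0 to 1172 when 1 library was left out. Members called lower, 1 at first, were 0 with limma-voom and the muscle covariate, and 0 to 1 without 1 library. The replicate numbers do not pair the samples: deviations of same-numbered libraries correlated at 0.107, 0.041 and -0.122. A replicate block gave 37 higher and 89 lower genes and 0 members. Atp6v0e2 then had an adjusted p of 0.081 and Tfeb 0.0726.

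Osteocyte scaling moved the median of all genes to -0.79 and osteoclast scaling to -0.37, from -0.01. Group medians (osteoclast isoforms, general subunits, restricted isoforms, partners) became -0.51, -0.67, -0.72 and -0.65, and -0.11, -0.24, -0.27 and -0.29. The osteoclast isoforms then lay 0.28 and 0.26 above the median of all genes, as against 0.28 at first, which follows from moving all genes nearly alike. The muscle covariate gave -0.003038 for the osteoclast isoforms and -0.17 for the partners. Leaving out 1 library gave 0.16 to 0.37, 0.08 to 0.20, -0.05 to 0.21 and 0.03836 to 0.1886.

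Signs turned as follows. Under osteocyte and osteoclast scaling they turned with a shift of all genes, whose median went to -0.79 and -0.37. The cause of the other turns was not tested. The muscle covariate gave Tcirg1 -0.29, Atp6v1c1 -0.003038, Atp6v0e2 0.0932, Clcn7 -0.28, Plekhm1 -0.17, Tfeb 0.02844 and Slc9b2 -0.10. Osteocyte scaling gave Atp6v0d2 -0.41, Tcirg1 -0.51, Atp6v1c1 -0.64, Atp6v0e -0.43, Clcn7 -0.58, Car2 -0.65, Snx10 -0.62, Plekhm1 -0.74, Slc4a2 -0.48 and Slc9b2 -0.35. Osteoclast scaling gave Atp6v0d2 -0.0007914, Tcirg1 -0.11, Atp6v1c1 -0.23, Atp6v0e -0.04777, Clcn7 -0.16, Car2 -0.29, Snx10 -0.20, Plekhm1 -0.32 and Slc4a2 -0.06855. Without 1 library Ostm1 ran from -0.17 to 0.01867, Car2 from -0.02947 to 0.19 and Plekhm1 from -0.03415 to 0.1446. The isoform ratio of Tcirg1 to Atp6v0a2 ran from -0.01 to 0.28, with -0.01105 without WT replicate 3, and Atp6v0d2 against the markers ran from -0.07999 to 0.06107, above 0 also at 0.004366, 0.003189 and 0.02237.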
